A study of Mus musculus with 4 samples.

Results

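The skeletal muscle myosin heavy chains studied here were 8 genes, Myh1, Myh2, Myh3, Myh4, Myh6, Myh7, Myh7b and Myh8, taken as a named gene family out of 50686 genes listed for the hip libraries and 54838 for the knee libraries. Articular cartilage from mouse hip and knee joints was profiled by poly-A RNA-seq in 4 libraries, 1 per condition, to follow the loss of Cbfβ, the partner subunit of the Runx transcription factors. The hip control was Cbfβf/f, with no Cre and no treatment on its label, and its counterpart was Cbfβf/f;Col2α1-CreERT after tamoxifen injection. The knee control was Cbfβf/f;Aggrecan-CreERT injected with oil, and its counterpart was the same genotype injected with tamoxifen. All 4 libraries thus carried the floxed Cbfβ alleles, and the hip pair differed in Cre and, by its labels, in tamoxifen as well. The legends of the study describe male mice of 6 weeks for the hip and 12 weeks for the knee, and its text gives another age for the hip. Both Cre lines are inducible and driven by genes of cartilage matrix, and neither promoter is one of muscle. The study describes the hip samples as articular cartilage only, and the knee samples as articular cartilage with bone. How many animals entered a library is not stated. The joint, the Cre line, the age, the control and the counting program all changed together, so the joints were described side by side.

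Myosin heavy chain is the motor of the sarcomere. Pairs of heavy chains coil into the thick filament, and their heads split ATP and pull on actin, with light chains bound at the neck. Adult limb fibres are typed by the heavy chain they hold. Myh7 encodes the slow, type I chain, Myh2 the type IIa, Myh1 the type IIx and Myh4 the type IIb chain, from slow and fatigue-resistant to fast. Myh3 encodes the embryonic and Myh8 the perinatal chain, which fade after birth and return in regenerating fibres. Myh6 encodes the alpha chain of the heart, and Myh7b a slow-type chain that is transcribed in several striated muscles. Cartilage itself contains no sarcomeres.

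The labelled tissue was checked against its markers first, as the extraction note of the deposit names osteoblasts while the tissue label gives cartilage. A list of 16 cartilage genes, among them Col2a1 and Acan, took 0.0326% of the hip control counts and 0.0158% of the hip counts labelled Cbfb-deficient, against 0.659% and 0.378% in the knee. None of the 16 was at 0 in any library. In the hip the lowest were Matn1, with 3 and 1 counts, and Epyc, with 2 and 3. Col2a1, the main collagen of cartilage, had 354 counts in the hip control, 228 in its counterpart, 87367 in the knee control and 33204 in its counterpart. The 93 muscle genes other than myosin heavy chains accounted for 20.6% and 18.5% of hip reads, and for 1.87% and 3.49% of knee reads, control first. Counts of the muscle list thus exceeded those of the cartilage list in all 4 libraries, most in the hip. Cbfb itself was counted 2548 and 2946 times in the hip libraries, and 3796 and 4572 times in the knee libraries. After TMM scaling its log2 fold change, Cbfb-deficient over control, was 0.41 in the hip, which is against the label, and -0.07 in the knee. Whole-gene counts cannot reveal a deleted exon, so they check neither label, and Cbfb-deficient names the library labelled so. Total counts on genes ranged from 34264456 to 38473120 per library. In bulk RNA, fewer cells of a type and less RNA per cell cannot be told apart.

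Of the 8 members, 5 lie in a single cluster on chromosome 11 of GRCm39, on the forward strand, in the order Myh3 (chr11:66969126-66993117), Myh2 (chr11:67061838-67088989), Myh1 (chr11:67089132-67116631), Myh4 (chr11:67128336-67151274) and Myh8 (chr11:67167746-67199462). Myh6 (chr14:55179367-55205887) and Myh7 (chr14:55208141-55232084) are neighbours on the reverse strand of chromosome 14. Myh7b stands alone (chr2:155453096-155476234). The antisense long noncoding RNA Myhas runs on the reverse strand across the end of Myh1 and the start of Myh4. It overlaps 907 bases, or 10.2%, of the merged exons of Myh1 and 383 bases, or 5.78%, of those of Myh4. A second noncoding gene, 9430073C21Rik, overlaps 237 exon bases of Myh2, and Mhrt overlaps 24.6% of the merged exons of Myh7. Whether counting used the strand is not stated, so reads from a member and its antisense partner cannot be told apart where they overlap.

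**Figure D1:**
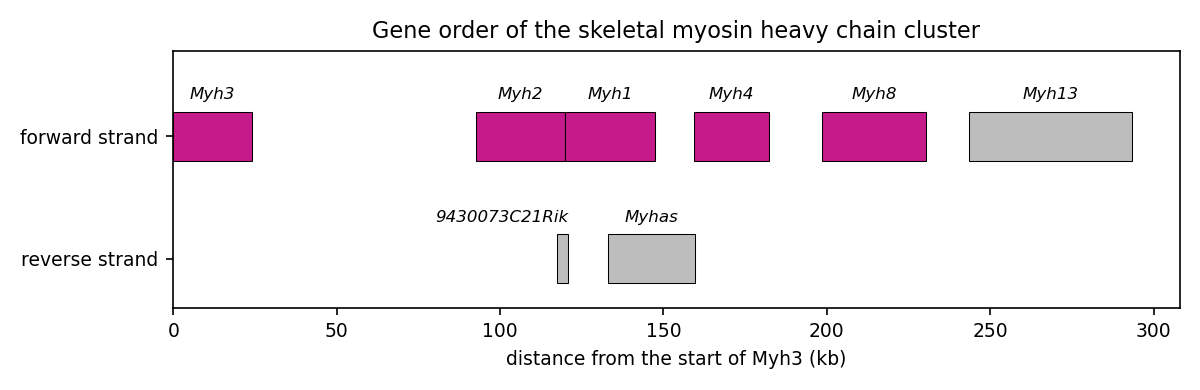
Map of the myosin heavy chain cluster on chromosome 11, with distance from the start of Myh3 in kb on the horizontal axis and the strand of each gene on the vertical axis. Members are filled in magenta and other genes in grey. Myh2 and Myh1 lie next to each other, and Myhas spans the gap between Myh1 and Myh4.

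The members are close copies, and their sequences are shown because the isoform shares below depend on telling them apart. Over the aligned coding bases, Myh1 and Myh2 were 90.9% identical, Myh1 and Myh4 90.1%, and Myh6 and Myh7 91.7%. Myh7b was the most remote, with 68.8% identity to Myh1. The coding stretch of 60 bases inside a single exon that differed most among Myh1, Myh2 and Myh4 was found in the part that encodes the coiled-coil rod. It is given for each member from the GENCODE transcript, 5′ to 3′, and capitals mark bases that differ from Myh4 (chr11:67145284-67145343, exon 27, forward strand).
Myh4: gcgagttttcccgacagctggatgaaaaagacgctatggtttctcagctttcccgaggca
Myh1: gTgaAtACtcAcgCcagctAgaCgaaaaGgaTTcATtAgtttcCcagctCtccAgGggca
Myh2: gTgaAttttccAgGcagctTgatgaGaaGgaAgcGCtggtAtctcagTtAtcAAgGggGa
Myh8: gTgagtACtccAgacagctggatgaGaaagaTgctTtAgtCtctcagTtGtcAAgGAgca
Myh3: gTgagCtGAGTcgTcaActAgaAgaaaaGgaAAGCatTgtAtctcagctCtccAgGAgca
Myh7: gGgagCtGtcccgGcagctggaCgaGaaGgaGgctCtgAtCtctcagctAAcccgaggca
Myh6: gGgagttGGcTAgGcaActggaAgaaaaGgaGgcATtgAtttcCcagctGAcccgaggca
Myh7b: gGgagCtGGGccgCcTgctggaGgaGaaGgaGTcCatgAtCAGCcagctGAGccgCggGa
In this stretch Myh1 (chr11:67108290-67108349, forward strand) differed from Myh4 at 18 of 60 bases, Myh2 (chr11:67082174-67082233, forward strand) at 17, Myh8 at 15 and Myh7 (chr14:55216099-55216158, reverse strand) at 13. Myh7b differed most, at 23. A read across this stretch therefore tells the members apart.

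Other stretches do not. The 60 bases below, from the motor domain, were identical in Myh4 (chr11:67136544-67136603), Myh1 (chr11:67097357-67097416), Myh2 (chr11:67070379-67070438) and Myh8 (chr11:67177256-67177315), all on the forward strand.
Shared by Myh1, Myh2, Myh4 and Myh8: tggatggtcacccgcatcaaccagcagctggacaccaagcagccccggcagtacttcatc
In windows of 50 bases along the transcripts, 20.97% of those of Myh1, 23.9% of Myh2, 18.8% of Myh4 and 19.9% of Myh8 were found exactly in another member. For Myh6 and Myh7 the values were 22.2% and 22.6%, shared with each other. Myh3 shared 3.66% and Myh7b none. At 100 bases the share fell to 7.60% for Myh1, 8.20% for Myh2, 3.89% for Myh4 and 11.2% for Myh6. The read length is not given in the sources used here, and a read that fits several members was either left out or assigned by the counting programs, so small shares next to an abundant close copy are uncertain.

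Among the 8 members, Myh4 had the highest level in every library. CPM, the count as parts of a library total of 1e+06, divided by the length of the canonical transcript were used for levels between genes, since these transcripts run from 5954 bases for Myh4 to 7546 for Myh1. In the hip control, Myh4 reached 2295 CPM per kb, Myh1 1738 and Myh2 652. Myh7 followed at 76.3 CPM per kb, Myh6 at 19.2, Myh8 at 13.4, Myh3 at 5.18 and Myh7b at 2.14. The hip library labelled Cbfb-deficient held Myh4 at 5383 CPM per kb, Myh1 at 3290 and Myh2 at 1156. Its lower order was Myh7 at 103, Myh8 at 33.97, Myh6 at 18.7, Myh3 at 16.6 and Myh7b at 5.61, so that Myh8 stood above Myh6 there. All neighbours in both hip orders differed beyond their counting intervals, which cover counting error only. The order also depends on the length used. Per kb of merged exons, Myh3 lay above Myh6 in the hip library labelled Cbfb-deficient, at 0.176% and 0.136% of the family.

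In the knee, Myh4 again led, and Myh3, Myh6, Myh7 and Myh7b were close to the floor of detection in the control. In the knee control, Myh4 had 276 CPM per kb, Myh1 26.0, Myh2 6.36 and Myh8 0.460. The last 4 members there, Myh7b, Myh7, Myh3 and Myh6, had 12, 8, 6 and 4 counts, and the intervals of their shares overlapped, so no order among them was detectable at this depth. In the knee library labelled Cbfb-deficient, Myh4 had 661 CPM per kb, Myh1 145, Myh2 33.8, Myh8 1.79, Myh7 0.976 and Myh3 0.199. Myh7b and Myh6, with 16 and 9 counts, could not be ordered. Levels of hip and knee came from different counting programs and gene annotations, and no ratio between the joints is given.

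**Figure D2:**
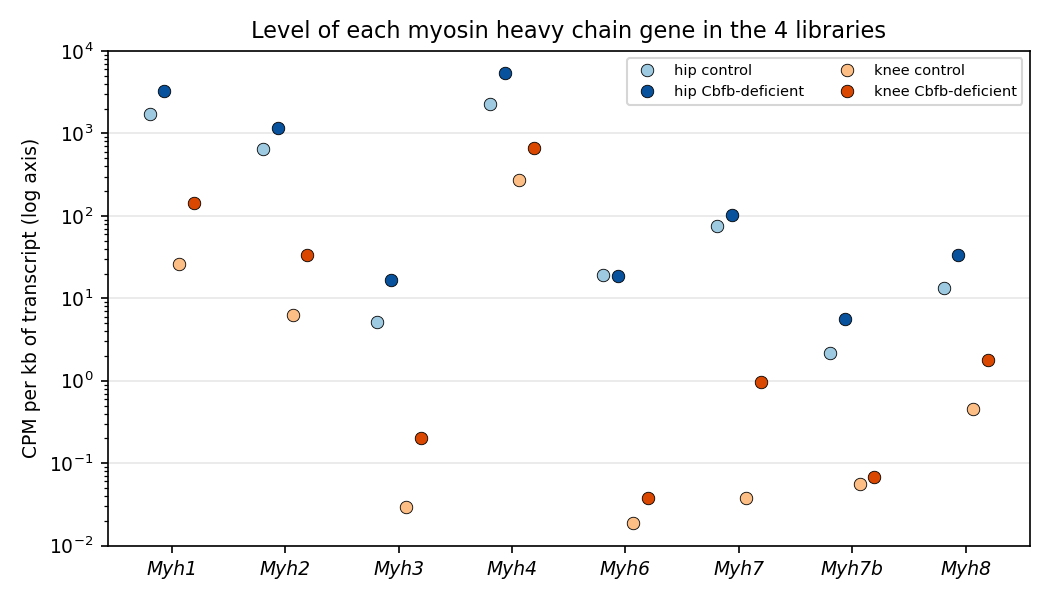
Level of each of the 8 genes in each library, as CPM per kb of canonical transcript on a log axis, with 1 point per library and no replicates. Myh4, Myh1 and Myh2 stand above the other 5 in all 4 libraries, and the knee control points of Myh3, Myh6, Myh7 and Myh7b lie below 0.1.

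The make-up of the family was then read as the share of each isoform in the summed counts of the 8 members, which does not depend on how the libraries were scaled. The family had 1228384 counts in the hip control and 2276513 in the hip library labelled Cbfb-deficient, which was 3.19% and 6.58% of all counts on genes. In the knee it had 64739 counts in the control and 201634 in the library labelled Cbfb-deficient, or 0.189% and 0.527%. The 3 adult fast genes, Myh1, Myh2 and Myh4, made up 97.8% and 98.3% of the family in the hip, against 99.8% and 99.6% in the knee. The slow and cardiac genes Myh6, Myh7 and Myh7b together made up 1.88% and 1.19% in the hip, against 0.0371% and 0.126% in the knee. The developmental genes Myh3 and Myh8 made up 0.356% and 0.469% in the hip, against 0.159% and 0.231% in the knee.

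Myh4, the type IIb gene, took 42.8% of the family counts in the hip control (exact binomial 95% interval 42.7 to 42.9%) and 48.7% in the hip library labelled Cbfb-deficient. In the knee its share was 87.1% in the control (86.9 to 87.4%) and 74.6% in the library labelled Cbfb-deficient (74.4 to 74.8%). The share of Myh4 was thus 5.89 percentage points higher in the hip library labelled Cbfb-deficient than in its control, while in the knee it was lower by 12.5 points (difference -12.5).

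Myh1, the type IIx gene, took 41.1% and 37.7% of the family in the hip, control first, and 10.4% and 20.7% in the knee. Myh2, the type IIa gene, took 13.9% and 11.9% in the hip, against 2.29% and 4.35% in the knee. Both moved against Myh4 in both pairs. Shares add up to the whole family, so a change of Myh4 forces an opposite change in the sum of the others. The ratio of Myh1 to Myh2 per kb of transcript was 2.67 and 2.85 in the hip, against 4.09 and 4.28 in the knee, a narrower range than that of Myh4 to Myh1, which was 1.32 and 1.64 in the hip, against 10.6 and 4.57 in the knee.

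Myh7, the slow gene, made up 1.47% of the family in the hip control and 0.958% in the hip library labelled Cbfb-deficient. In the knee it made up 0.0124% from 8 counts in the control (0.0053 to 0.0243%) and 0.114% from 229 counts in the library labelled Cbfb-deficient (0.0993 to 0.129%). Myh6, the cardiac alpha gene, had a share of 0.375% and 0.178% in the hip. Its share in the knee rested on 4 and 9 counts. A list of 9 heart genes, counted beside the 4607 and 4044 counts of Myh6, took 0.00188% and 0.00447% of the hip libraries. Most of that was Ankrd1, a stress-responsive ankyrin repeat protein, with 602 and 1510 counts. Gata4 had 52 and 2 counts there, and the other 7, given with Gata4 and Ankrd1 to cover the whole list, had at most 34.

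Per kb of transcript, which allows for the long transcript of Myh1, Myh4 made up 47.8% and 53.8% of the family in the hip, against 89.3% and 78.5% in the knee. Directions within each pair were the same as those of the count shares for Myh1, Myh2 and Myh4. With 1 library per condition no spread between animals was measured, so these differences compare libraries.

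**Figure D3:**
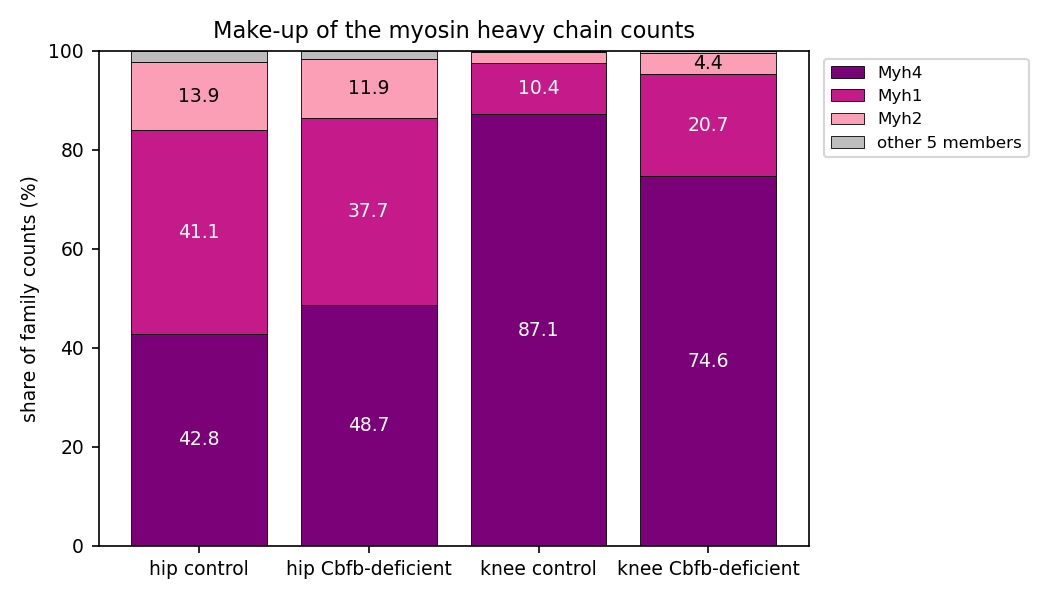
Share of the summed family counts, in percent, taken by Myh4, Myh1, Myh2 and the other 5 members in each of the 4 libraries, as stacked bars from 0 to 100. Myh4 fills 42.8% and 48.7% of the hip bars and 87.1% and 74.6% of the knee bars, with Myh1 next in all 4.

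Within each pair, the abundance of each member in the library labelled Cbfb-deficient was compared with its control. Counts were scaled by the TMM method of edgeR within the pair, and the log2 fold change (log2FC) is the logarithm of the ratio of scaled counts after 0.5 was added, Cbfb-deficient over control. Its 95% confidence interval (CI) is exact for counting error and covers nothing else. To be called, a gene needed 10 or more counts summed over its pair, an absolute log2FC of 1 or more and a CI clear of 0. All 8 members passed the filter on counts in both pairs. No p-value can be given for 1 library against 1.

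In the hip, the summed family was 2.13-fold higher in the library labelled Cbfb-deficient, with log2FC 1.09 (95% CI 1.08 to 1.09). By this rule 4 of the 8 members, Myh3, Myh4, Myh7b and Myh8, were called, each higher. Among all 19856 genes of the pair that passed the filter 36.5% were called, 20.2% higher and 16.3% lower. The median log2FC was 1.12 over the members and 0.01 over all genes tested. Myh6 was the only member in the hip pair whose interval included 0.

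Myh4 had 525762 counts in the hip control and 1108488 in the library labelled Cbfb-deficient, log2FC 1.27 (95% CI 1.27 to 1.28). Myh1 had 504693 and 858653, with log2FC 0.96, just under the limit for a call. Myh2 had 170411 and 271628, with log2FC 0.87. The adult fast genes were therefore all more abundant in the hip library labelled Cbfb-deficient, Myh4 most. The developmental pair lay above them. Myh3, the embryonic gene, had 1202 and 3459 counts, log2FC 1.72 (95% CI 1.63 to 1.82). Myh8, the perinatal gene, had 3177 and 7224 counts, log2FC 1.38 (1.32 to 1.44). Both remained minor members. Myh7b had 511 and 1203 counts, log2FC 1.43 (1.28 to 1.59). The slow gene Myh7 had 18021 and 21814, with log2FC 0.47. Myh6 had 4607 and 4044, with log2FC 0.01 (-0.05 to 0.07). The slow and cardiac genes that share chromosome 14 thus had the smallest ratios of the family in the hip by TMM. With the trend with transcript length and GC subtracted, Myh1 had log2FC 0.42 and lay below Myh7 at 0.55.

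In the knee, the summed family was 2.46-fold higher in the library labelled Cbfb-deficient, with log2FC 1.30 (95% CI 1.29 to 1.31), which became 0.58 when scaled to the muscle partner genes. Here 6 of the 8 members were called, all higher, and Myh6 and Myh7b were not. Among all 21131 genes of the pair that passed the filter 15.8% were called, 9.0% higher and 6.81% lower. The median log2FC was 1.998 over the members and 0.02 over all genes tested. Myh3, Myh4 and Myh8 were called in both pairs. The knee call of Myh4 was lost when the trend with transcript length and GC was subtracted (log2FC 0.84) and when counts were scaled to the muscle partner genes (0.35), and Myh3 had under 100 counts over the knee pair.

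Myh4 had 56406 counts in the knee control and 150449 in the library labelled Cbfb-deficient, log2FC 1.08 (95% CI 1.06 to 1.09). Myh1 had 6724 and 41687, log2FC 2.29 (2.26 to 2.33). Myh2 had 1482 and 8778, log2FC 2.23 (2.15 to 2.31). In the knee the type IIx and IIa genes thus had larger ratios than the type IIb gene, the reverse of the order in the hip. Myh7 had 8 and 229 counts, log2FC 4.42 (3.50 to 5.73). Myh8 had 97 and 420 counts, log2FC 1.77 (1.45 to 2.11). Myh3 had 6 and 46 counts, log2FC 2.50 (1.37 to 4.12). Myh7 had the highest estimate of the 8 in the knee, with an interval that overlapped that of Myh3, from a control level close to the floor of 3 counts, which is 0.0876 CPM in that library. Myh6 had 4 and 9 counts and Myh7b 12 and 16, and differences between them were not detectable at this depth.

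**Figure D4:**
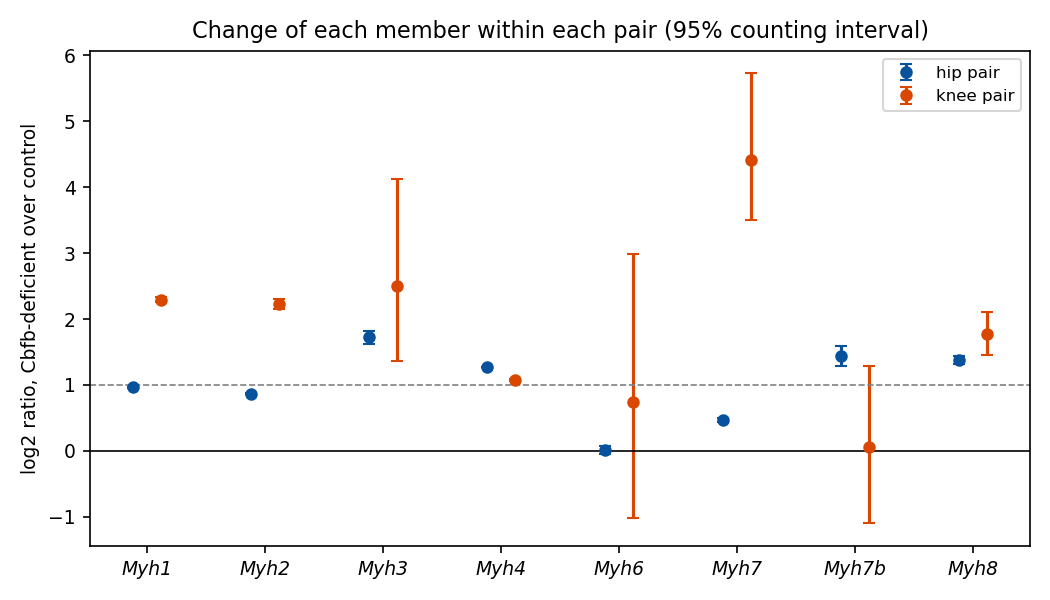
Log2 ratio of the library labelled Cbfb-deficient over its control for each member, with the hip pair in blue and the knee pair in orange. Bars are 95% CIs, the solid line marks 0 and the dashed line the limit of 1 for a call. Intervals of 6 members lie above 0 in both pairs, and the knee intervals of Myh6 and Myh7b include 0.

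Tissue markers also differed within both pairs, in both directions. Among all genes tested, 31.9% were higher and 29.7% lower beyond their counting intervals in the knee, against 37.3% and 33.7% in the hip. Of the 16 cartilage genes, 12 were lower and 4 higher beyond their counting intervals in the knee library labelled Cbfb-deficient, and the summed share of the list went from 0.659% to 0.378% of counts. A list of 7 red blood cell genes went from 9.97% to 4.92%, and 8 fat genes from 0.0679% to 0.120%, all 8 higher. In the hip, the cartilage list had 9 lower and 3 higher of 14 genes that passed the filter, and the red blood cell list went from 0.588% to 0.222%. A list of 10 bone genes went from 0.0892% to 0.0258% in the hip, with 3 higher and 4 lower, and from 1.41% to 0.777% in the knee, with 3 higher and 7 lower. Most of the hip difference lay in Col1a1, a main collagen of bone and tendon, which had 29148 and 5430 counts and was singled out after its values were seen. The 6 tendon genes went from 0.0472% to 0.0117% in the hip, with 1 higher and 5 lower. In the knee they went from 0.0343% to 0.0429%, with 3 higher and 2 lower. Fat genes went from 0.0219% to 0.0387% in the hip, with 6 higher and 2 lower. A list of 6 endothelial genes went from 0.0247% to 0.0231% in the hip, with 2 higher and 2 lower. In the knee the endothelial list went from 0.0243% to 0.0391%, with 5 higher and 1 lower. The part of tissue make-up in the myosin ratios was not tested.

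The other muscle genes were next set beside the heavy chains, to give the family relative to their summed counts. Relative to the summed counts of 93 muscle genes, the family had log2FC 1.20 in the hip and 0.58 in the knee. Family counts were 15.5% and 35.6% of the counts of those genes in the hip, against 10.1% and 15.1% in the knee. Scaled in this way, Myh4 had log2FC 1.39 in the hip and 0.35 in the knee, Myh1 of 1.08 and 1.57, and Myh2 of 0.99 and 1.51. The sum holds genes of unlike length and direction in the hip. Acta1, of 1648 bases, had 1645743 and 674897 counts there, and Ttn, of 107543 bases, had 67185 and 469639. Scaling to this sum therefore does not remove the trend with transcript length given below.

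The light chains, which bind the neck of the heavy chain, were lower in the hip where the heavy chains were higher. Among these, Myl1, Mylpf and Myl2 were singled out after their values were seen. Myl1, an alkali light chain of fast fibres, had 123121 and 63295 counts in the hip, log2FC -0.76, and 28544 and 74100 in the knee, log2FC 1.04. Mylpf, the fast regulatory light chain, had log2FC values of -0.60 and 1.03. Myl2, the slow regulatory light chain, had log2FC values of -1.40 and 0.39, and Myl3, the slow alkali light chain, of -3.10 and 0.22. In the hip these 4 light chains were thus lower beyond their intervals and in the knee higher. Their canonical transcripts run from 766 to 1182 bases, and among all hip genes of under 2 kb that reached 100 counts, 1542 of 2943 were lower and 809 higher, while in the knee 2136 of 3748 such genes were lower and 689 higher. The less abundant Myl6b had log2FC values of -1.08 and -0.19, the latter with an interval that included 0, and Myl4 had -0.45 and -1.30, so that the knee direction did not extend to every light chain.

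The lists of partners were counted in the same way, as genes beyond their counting intervals. Of 11 fast fibre partners, 3 were higher and 7 lower beyond their counting intervals in the hip, with a median log2FC of -0.44, while all 11 were higher in the knee, with a median of 0.66. Atp2a1, the calcium pump of fast fibres, had log2FC values of 0.19 and 2.27, hip first. Pvalb, a calcium buffer of fast fibres, had -1.92 and 0.14. Actn3, the fast alpha-actinin, had 0.67 and 1.51, and Tnnt3, the fast troponin T, had -0.21 and 0.66. Of 11 slow fibre partners, 3 were higher and 7 lower in the hip, with a median of -1.01, and 9 were higher and 1 lower in the knee, with a median of 0.50. Tnni1, the slow troponin I, had 9568 and 2820 counts in the hip, against 40 and 223 in the knee, log2FC values of -1.56 and 2.12. Mybpc1, a myosin-binding protein of slow fibres, had 0.54 and 1.31.

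Of 9 thick filament and M-band genes, 6 lay above and 3 below 0 in the hip, with a median of 0.93, and all 9 were higher in the knee, with a median of 1.34. Ttn, the giant spring of the sarcomere, had log2FC values of 3.003 and 1.34. Mybph, a myosin-binding protein of the thick filament, had 1.23 and 3.04. Of 12 thin filament and Z-disc genes, 6 lay above and 6 below 0 in the hip, while all 12 were higher in the knee. Acta1, skeletal muscle actin, had -1.09 and 0.90, and Neb, the ruler of the thin filament, had 2.71 and 1.93. Ttn and Neb had the highest hip ratios of their lists.

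Of 8 genes for myosin folding and assembly, 3 were higher and 4 lower in the hip and 6 higher and 2 lower in the knee. Hsp90aa1, a chaperone used in myosin folding, had log2FC values of 1.06 and -0.83, and Cryab, a small heat shock protein, -1.07 and 0.16. Of 19 fibre type regulators, 14 were higher and 4 lower in the hip and 15 higher and 2 lower in the knee. Among them Mef2c, a MADS-box activator of muscle genes, had 1.26 and 0.61, and Esrrg, an orphan receptor of oxidative fibres, had 1.42 and 1.76.

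Of the embryonic and regenerating muscle genes, read beside Myh3 and Myh8, 12 of 14 passed the filter in each pair. In the hip 6 were higher and 5 lower, and in the knee 5 higher and 4 lower, so both directions were present as among all genes. Myog, which drives the fusion and differentiation of myoblasts, had 168 and 357 counts in the hip, log2FC 1.28, and 32 and 60 in the knee, where its interval (-0.07 to 1.23) included 0. Chrng, the fetal acetylcholine receptor subunit, had 30 and 9 counts in the hip, against 0 and 4 in the knee. Myl4, lower in both pairs, is the embryonic and atrial light chain.

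Length was measured beside these ratios, because the heavy chain transcripts are long. Among the 81 muscle partners that reached 100 counts in the hip pair, those of under 2 kb had a median log2FC of -0.45, those of 2 to 4 kb 0.00 and those of over 4 kb 0.65. Of the shortest, 17 of 23 were lower, beside 1542 of 2943 among all genes of that length, and of the longest, 25 of 31 were higher, beside 3239 of 5049. Across the 81 genes, Spearman's rho between length and hip ratio was 0.53, and these genes share the same 2 libraries. In the knee, the medians were 0.56, 0.90 and 1.08, and rho was 0.21 over 78 genes.

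The trend was seen in all genes that reached 100 counts as well. Genes of 5 to 8 kb, the range of the heavy chains, had a median log2FC of 0.54 in the hip, where 32.4% were called higher, and of 0.21 in the knee, where 9.18% were. After subtraction of the trend with transcript length and GC, the family had log2FC 0.87 in the hip and 1.06 in the knee. Length was here that of the longest transcript of each gene, not the canonical one. In the hip, Myh1 went from 0.96 to 0.42 and Myh2 from 0.87 to 0.72, and Myh3 and Myh8 became slightly lower. Myh4 went from 1.27 to 1.29, and Myh6, Myh7 and Myh7b also became higher. In the knee every member became lower. The part of transcript length and RNA integrity in the hip ratios was not tested beyond this.

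**Figure D5:**
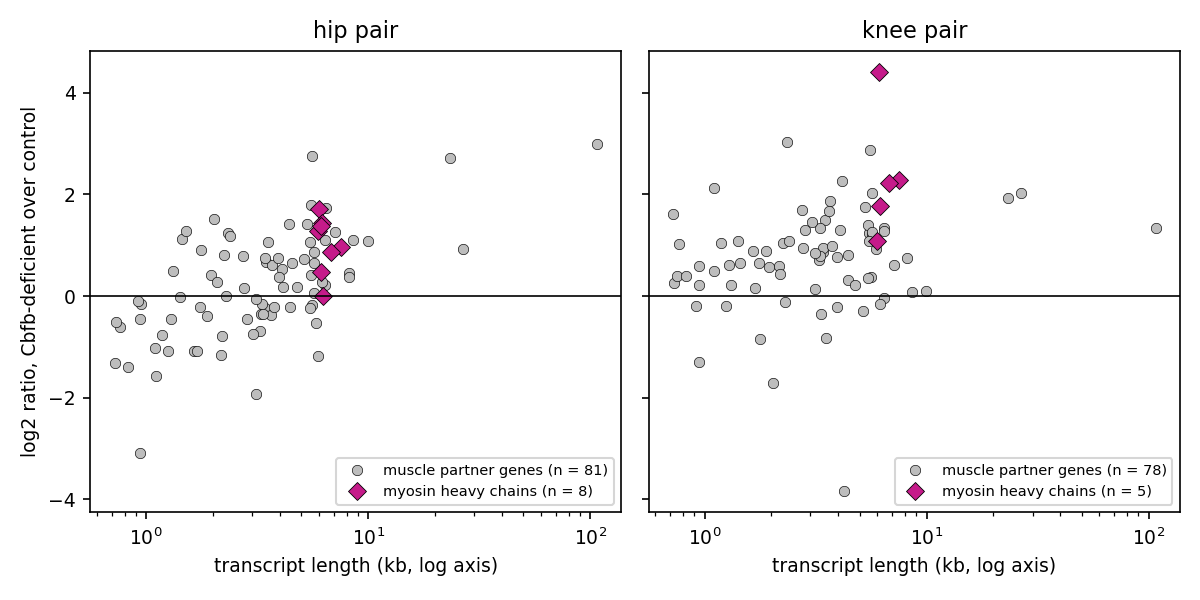
Log2 ratio of the library labelled Cbfb-deficient over its control against canonical transcript length in kb on a log axis, for the hip pair on the left and the knee pair on the right. Genes drawn reached 100 counts in the pair. Grey points are muscle partner genes and magenta diamonds are myosin heavy chains, all 8 in the hip and the 5 that reached 100 counts in the knee. Short genes lie mostly below 0 in the hip and mostly above 0 in the knee.

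The other myosin heavy chains gave a comparison within the wider family. The non-muscle gene Myh9 had 2867 and 2986 counts in the hip, against 13131 and 25644 in the knee, log2FC values of 0.26 and 0.63. Myh10, also of the non-muscle kind, had log2FC values of 1.44 and 0.19, and the smooth muscle gene Myh11 had 0.90 and 1.93. Counts of the hip and the knee came from different counting programs and annotations and are not compared. Of 6 such genes all were higher in the hip library labelled Cbfb-deficient than in its control, beyond their counting intervals. In the knee pair, 5 of 5 that passed the filter were higher in the same sense.

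Myhas, the antisense transcript between Myh1 and Myh4, had 106 and 499 counts in the hip, log2FC 2.43 (95% CI 2.13 to 2.75). In the knee it had 78 and 294, log2FC 1.57 (1.21 to 1.95). It was thus higher in the same libraries as Myh4, at a small fraction of its counts. 9430073C21Rik, between Myh2 and Myh1, had 140 and 493 counts in the hip, log2FC 2.01, and 17 and 33 in the knee, where the interval included 0. Mhrt, antisense to Myh7, had 2 and 4 counts in the hip and none in the knee, and no ratio is given at or near the floor.

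The upstream sequences of the 3 adult fast genes are shown because these genes were higher together in both pairs and carry nearly all family counts. Each run is the 250 bases before the RefSeq start on build GRCm38.p6, 5′ to 3′ on the forward strand. Positions are chr11:67237562-67237811 for Myh4, chr11:67199852-67200101 for Myh1 and chr11:67170777-67171026 for Myh2. Capitals mark matches, on either strand, to the E-box CANNTG, to TATAAA, to CATTCC, which is the core of the M-CAT element, or to the MEF2 consensus.
Myh4: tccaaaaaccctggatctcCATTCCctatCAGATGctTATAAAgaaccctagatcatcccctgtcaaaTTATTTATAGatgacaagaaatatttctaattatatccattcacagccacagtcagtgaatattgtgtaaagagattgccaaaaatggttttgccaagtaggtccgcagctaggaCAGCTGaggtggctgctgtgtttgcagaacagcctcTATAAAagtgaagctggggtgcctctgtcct
Myh1: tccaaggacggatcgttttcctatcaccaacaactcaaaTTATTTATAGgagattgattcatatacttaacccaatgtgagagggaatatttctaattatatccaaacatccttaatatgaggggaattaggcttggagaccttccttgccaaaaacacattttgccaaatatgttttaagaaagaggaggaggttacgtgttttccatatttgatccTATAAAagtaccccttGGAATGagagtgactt
Myh2: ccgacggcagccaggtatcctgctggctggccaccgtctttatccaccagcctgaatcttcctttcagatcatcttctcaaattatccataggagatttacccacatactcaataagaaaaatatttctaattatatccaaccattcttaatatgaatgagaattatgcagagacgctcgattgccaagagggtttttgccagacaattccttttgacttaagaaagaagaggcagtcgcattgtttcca
Myh4 held 2 E-boxes, 3 matches to TATAAA, of which the last began at position -31, 1 CATTCC and 1 MEF2 match. Myh1 held 2 matches to TATAAA, the last at -32, 1 CATTCC and 1 MEF2 match, and no E-box. In both genes a TATAAA match lies inside the MEF2 match. No match was found in the window of Myh2, which says only that these letters are absent there. The MEF2 consensus was present in 2.92% of 32851 promoter windows of the same length, TATAAA in 12.4%, CATTCC in 12.6% and the E-box in 66.2%. Of the other members, Myh8 held a MEF2 match and Myh3, Myh6, Myh7 and Myh7b held none. These matches are descriptions of sequence, and binding was not measured.

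Last, genes with the most similar pattern were sought for the members with at least 100 counts in every library, Myh1, Myh2 and Myh4. Likeness was the root mean square difference of centred log2 CPM over the 4 libraries, among 10514 genes with at least 1000 counts in all. Among the genes closest to Myh1 were Myo18b, an unconventional myosin of striated muscle, at 0.0653, and Nrap, a protein of forming myofibrils, at 0.152. Myh2 had no match as near, with Myo18b at 0.302 and Myh1 at 0.303 first. Closest to Myh4 were Lrrc2 at 0.0605, Art3 at 0.0976 and the noncoding gene Nctc1 at 0.126. Myo18b had 24337 and 46043 counts in the hip, against 323 and 2136 in the knee, and Lrrc2 had 2378 and 5295, and 284 and 691. The type IIx and IIb genes thus had different nearest neighbours by this measure, which includes the hip and knee levels that came from different counting programs and annotations.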

How the data were processed

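Libraries were prepared from poly-A RNA of cartilage with the NEBNext Ultra kit. The study states alignment with STAR to GRCm39, while the submitters' processing notes name mm10, so the build of the counts is not settled. The authors deposited raw read counts, 1 value per Ensembl gene and not normalized. Those of the hip end in HTSeq summary lines, which held 25.8% and 24.6% of reads listed, with 7.40% and 5.96% ambiguous between genes. These lines were left out. The knee counts came from another program. Strand setting and read length are not given in the sources used here.

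Identifiers were matched to GENCODE vM39 on GRCm39 (91.8% of hip and 92.6% of knee identifiers). Promoter windows came from RefSeq, where all 8 members matched. TMM factors were taken per pair from edgeR 4.0.16, and size factors from DESeq2 1.42.0 served for comparison (both under R 4.3.3). Ratios, shares and plots were made in Python 3.11.15 (pandas 2.3.3, numpy 2.4.6, scipy 1.17.1, matplotlib 3.10.9). Log2 ratios added 0.5 to each count. Clopper-Pearson 95% intervals cover counting error only, and a count of 3 was the floor, which is 0.0780 to 0.0876 CPM. To remove the trend, median ratios within 20 bins of longest transcript length and then within GC bins were subtracted, in 2 rounds. The ratio and call were tested on simulated counts. The members and lists were chosen with earlier results of these data known. All members are named. Of each list, named genes are the 2 with the highest mean CPM and the highest and lowest ratio in each pair, of which a part is printed, and others are said to be singled out. Some named genes are not reported here. Within a pair, 1 library per condition leaves no error estimate. A fit over both joints was not run, since the pairs differ in Cre line, age, control and counting program.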

Additional observations from a re-analysis of the deposited data

Results flagged for a closer look

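The change in isoform share went opposite ways in the hip and the knee for 4 members, each with count intervals that did not overlap within the pair. Shares add up to the whole family, and Myh1, Myh2 and Myh4 hold nearly all of it. The differences of these genes are therefore largely a single contrast. The share of Myh4 differed by 5.89 percentage points in the hip, Cbfb-deficient minus control, and by -12.5 in the knee. For Myh1 the differences were -3.37 and 10.3 points, for Myh2 -1.94 and 2.06, and for Myh7 -0.509 and 0.101. Each joint had 1 library per condition, and the difference between the joints was not tested. What differs between the pairs besides the joint (Cre line, age, control, counting program) cannot be told apart from it.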

How the results depend on the processing

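The family stayed higher in the library labelled Cbfb-deficient of both pairs under all 5 alternatives. In the hip its log2 ratio was 1.04 with scaling by library size, 1.02 with DESeq2 size factors, 0.87 with the length and GC trend removed and 1.20 when scaled to the muscle partner genes. In the knee it was 1.48 with scaling by library size, 1.06 without the trend and 0.58 when scaled to the muscle partner genes. The number of members called stayed between 4 and 6 in the hip and between 5 and 6 in the knee under every scaling, filter and threshold tried. The hip value of 6 came from the lower log2 threshold of 0.5. The share of all genes called was computed for the main rule only, 36.5% in the hip and 15.8% in the knee. The counts under the alternatives therefore have no background beside them. In the knee the call lost was that of Myh4 without the trend and under muscle scaling, and that of Myh3 with a minimum of 100 counts. No member with an interval off 0 changed sign. Myh6, whose hip interval included 0, lay between -0.06 and 0.13 in the hip. Myh7b in the knee, also within counting error, lay between -0.66 and 0.24. Shares moved by at most 5.10 percentage points per kb of canonical transcript, an alternative chosen after seeing the data, by 7.23 per kb of merged exons and by -0.0344 with Myh13 and Myh15 added. No paired analysis was possible because the groups compared share fewer than 2 replicate numbers. A fit of all 4 libraries with the joint as a block, which would take the joints as replicates, was not run. Depth limits Myh3, Myh6, Myh7 and Myh7b in the knee control, with 4 to 12 counts each.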
